A study of Rattus norvegicus with 24 samples.

Results

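Substantia nigra from 3 rats that had become dyskinetic on levodopa was compared with substantia nigra from 3 rats that had received the same lesion and drug and had not become dyskinetic. These are 6 of the 24 arrays of the series, and 6 of its 12 nigral arrays, chosen by their labels. All were adult male Sprague Dawley rats. Each had been injected on one side of the brain with 6-hydroxydopamine (6-OHDA, a toxin taken up by dopamine neurons), as 2 injections at 5 ug/ul, and had then been given levodopa, the precursor of dopamine, every day from 3.5 weeks after the lesion. Abnormal movements were scored in 7 sessions, and the groups differ in that score. A lesion counted as successful when striatal dopamine had dropped by more than 90% and motor tests without drug showed it. The remaining nigral arrays, used here for the spread between samples and for reference levels, came from 3 rats with the toxin that were given saline in place of levodopa (called vehicle rats here) and 3 rats with a sham lesion that were given levodopa (intact rats). No group was both without the toxin and without levodopa. Levodopa dose, the side punched, the dopamine loss of each rat and the time from the last dose to death are not in the labels.

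The substantia nigra holds dopamine neurons, which send axons to the striatum and die in Parkinson's disease, and GABA neurons, which carry the output of the basal ganglia to thalamus and brainstem. Striatal neurons of the direct pathway release GABA, dynorphin and substance P onto these GABA cells. Once dopamine axons are lost, levodopa given in pulses overstimulates dopamine receptors, and involuntary movements, levodopa-induced dyskinesia, can follow. Immediate early genes, which neurons transcribe briefly when they are stimulated, are the classical molecular trace of that state in the striatum.

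Each sample was a punch of 0.5 by 1.5 mm from 1 rat, so every value is an average over the neurons, glia and vessels in it. A gene's value is the mean log2 level over the array probe sets that name that gene alone, and a difference of 1 on this scale is a doubling. Values after ± are standard errors of the fitted difference unless an SD is named. Array medians ran from 8.21 to 8.32, the lowest correlation between any pair of nigral arrays was 0.971, and 3 arrays a group limit the precision of every comparison.

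The labelled tissue was checked against its markers. In intact nigra Th, which makes the direct precursor of dopamine, was at 13.39, 13.50 and 13.38, and Slc6a3, the dopamine transporter, at a mean of 13.18, near the top of the range of all values (2.88 to 14.5). Both lesioned levodopa groups lay below that. Several arrays held genes of neighbouring tissue. Tph2, the enzyme of serotonin neurons, stood at 9.66 in dyskinetic array 3 and 8.90 in vehicle array 3 against at most 5.84 in the other arrays, and the serotonin transporter Slc6a4 at 9.19 and 8.63 against at most 6.87. Slc17a6, the vesicular transporter of midbrain and subthalamic glutamate neurons, was highest in dyskinetic array 2 (10.22) and lowest in non-dyskinetic array 3 (6.16). Vehicle array 1 had the highest values of the striatal genes Penk (10.08) and Tac1 (8.11). Vehicle array 3 had the highest haemoglobin genes (Hbb, 11.95) and the highest Aldh1a2 (8.57), an enzyme of the meninges. These arrays are kept, and counts without them are given beside the count of all genes.

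**Figure D1:**
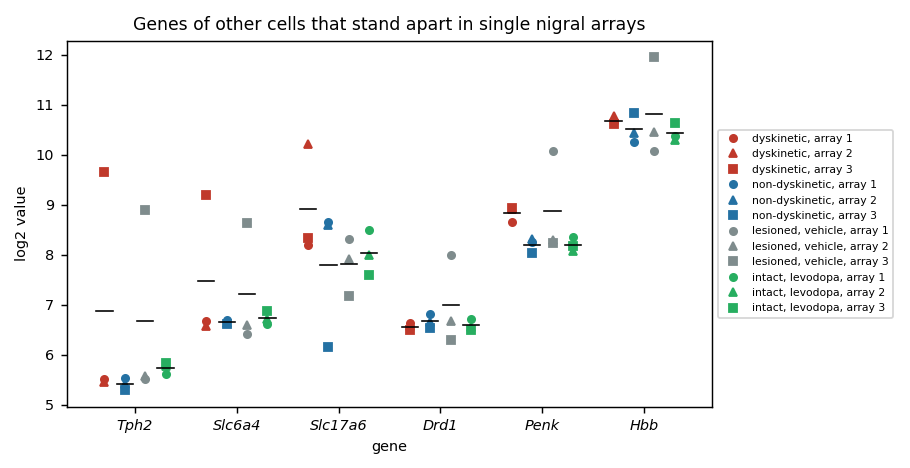
Log2 level (y axis) of genes that mark neighbouring tissue in each of the 12 nigral arrays (points, coloured by group, with shape for the array number; bars are group means). Dyskinetic array 3 and vehicle array 3 stand at 9.66 and 8.90 for Tph2, where no other array is above 5.84.

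Nigra of dyskinetic rats had higher levels of the immediate early genes Egr1, Arc and Junb, of the hormone-activating enzymes Dio2 and Hsd11b1, of the tubulins Tubb2b and Tubb6, and of the endothelial receptor Adgrl4, and a lower level of Ret, the receptor through which dopamine neurons respond to glial cell line-derived neurotrophic factor (GDNF). In all, 30 of 12436 genes passed limma's test at an adjusted p of 0.05 (0.241% of genes), 21 higher (0.169%) and 9 lower (0.0724%) in dyskinetic rats. At an unadjusted p under 0.05 there were 1813 genes (14.6%), where 621.8 would be counted without any difference, 698 of them higher (5.61%) and 1115 lower (8.97%). The median difference over all genes was -0.02, and 44.5% of genes were higher and 55.5% lower in dyskinetic rats by difference. Of the 30 genes, 2 differed by at least a doubling, Egr1 and Kcne5, and the largest fall was that of Ngdn (-0.70). Adjusted p ran from 0.00553 to 0.0427. All 30 had dyskinetic arrays that did not overlap the non-dyskinetic ones, as did 2647 of all genes (21.3%).

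The vehicle and intact arrays, which enter the fit through its estimate of the spread, give reference levels for the 30 genes. In 28 of them all 3 dyskinetic arrays lay outside all 9 other nigral arrays, as in 942 of all genes (7.57%). The 30 were chosen by a difference that meets part of this condition, so nothing is read from that count. The exceptions were Egr1 and Ngdn, and in both vehicle array 1 was the array that reached the dyskinetic range. The median size of the difference was 0.588 between dyskinetic and non-dyskinetic rats, 0.602 between dyskinetic and vehicle rats and 0.116 between non-dyskinetic and vehicle rats. The first pair of these share the dyskinetic arrays. Kcne5 had the largest gap between the non-dyskinetic and vehicle means (0.681).

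**Figure D2:**
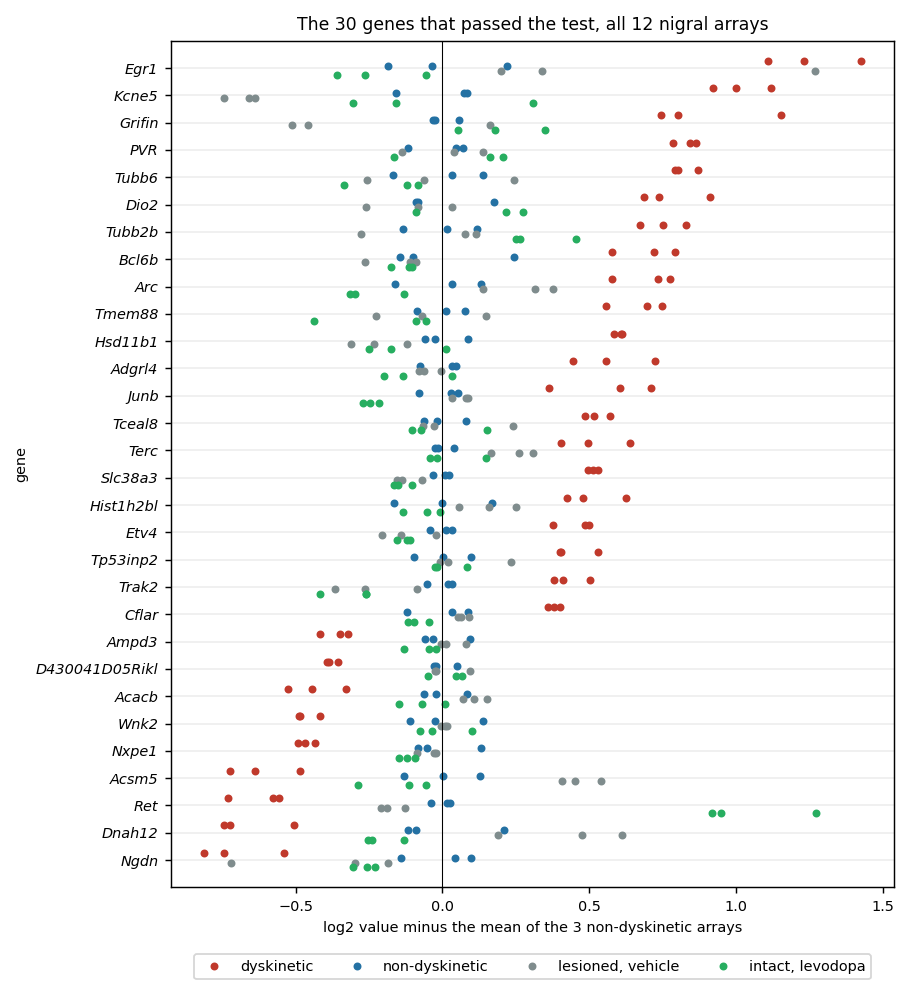
Level of each of the 30 genes that passed the test in all 12 nigral arrays, as the log2 value minus the mean of the 3 non-dyskinetic arrays (x axis), one point an array, coloured by group. The dyskinetic points lie to one side of the other 9 arrays in 28 of the 30 genes; a vehicle point reaches them in Egr1 and Ngdn, and the intact points of Ret lie far to the right.

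The number of genes depended on single arrays. Without dyskinetic array 1 it was 0, with 1326 genes at an unadjusted p under 0.05; the 30 genes kept their direction there and had adjusted p between 0.0509 and 0.211. Leaving out dyskinetic array 2 gave 16 genes, and leaving out dyskinetic array 3 gave 12; it was 9 without non-dyskinetic array 1 and 11 without non-dyskinetic array 2. In the same order 14, 6, 8 and 11 of the 30 genes still passed. The count was 20 without intact array 2, 18 without intact array 3 and 50 without vehicle array 3, where all 30 passed. Leaving out non-dyskinetic array 3 gave 24 genes, 17 of them among the 30, and leaving out vehicle array 1 gave 26, with 25 among the 30. Without vehicle arrays 1 and 3 together the count was 56, and without those and dyskinetic array 3 it was 30, of which 16 were among the 30 above; both of these settings were chosen after seeing the data. Slc38a3, PVR, Kcne5 and Hsd11b1 lost their call without dyskinetic array 1 (adjusted p = 0.0509 each) and kept it without each of the other 11 arrays. Arc and Nxpe1 lost it without dyskinetic array 1 (0.0603 and 0.0594) or array 3, and each of the remaining genes in at least 3 of the 12 cases. With the median over a gene's probe sets in place of their mean, 16 genes passed, 14 of them among the 30. The other 16 of the 30 then had adjusted p between 0.0556 and 0.396, and the difference was 0.32 for Arc, -0.19 for Acacb and 0.18 for Tceal8.

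Immediate early genes are taken first. Egr1, a zinc-finger transcription factor induced by activity through the ERK kinases, had the largest difference among the 30 genes. It stood at 10.04, 9.85 and 9.73 in the dyskinetic arrays and at 8.84, 8.58 and 8.43 in the non-dyskinetic ones. The groups did not overlap, and the rise of 1.26 ± 0.22 (2.39-fold, adjusted p = 0.0366 from limma) was seen in all 4 probe sets. In vehicle rats Egr1 stood at 9.89, 8.81 and 8.96, so that vehicle array 1 lay among the dyskinetic arrays and the others near the non-dyskinetic ones. That array is also the one with the highest striatal genes, and Egr1 is at least 11.30 in every dyskinetic and non-dyskinetic striatal array; the part of striatal tissue in its value was not tested. Without vehicle arrays 1 and 3 the adjusted p of Egr1 was 0.00228. It lost its call without any one of the 9 dyskinetic, non-dyskinetic or intact arrays (highest adjusted p 0.167, without dyskinetic array 1).

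Arc encodes a protein whose messenger RNA travels to active dendrites, where it regulates the removal of AMPA receptors from synapses. Its level was 7.96, 7.81 and 8.01 in dyskinetic nigra and 7.36, 7.07 and 7.26 in non-dyskinetic nigra. The lowest dyskinetic array was above the highest vehicle array (7.61) and the highest intact array (7.10) as well. Arc rose by 0.70 ± 0.093 (1.62-fold, adjusted p = 0.0102), in the same direction in all 3 of its probe sets; with the median over probe sets in place of the mean the difference was 0.32 and the adjusted p 0.303. Junb, which pairs with Fos proteins to form AP-1, stood at 9.15, 8.80 and 9.05 against 8.47, 8.36 and 8.49. Vehicle arrays (8.53, 8.52 and 8.47) overlapped the non-dyskinetic ones, and intact arrays lay lower. Junb rose by 0.56 ± 0.081 (1.47-fold, adjusted p = 0.0102) on its 1 probe set, and did not pass without dyskinetic array 1 or 3 or non-dyskinetic array 1 or 2 (highest adjusted p 0.0706).

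The sequences just upstream of Egr1 and Junb are shown because both genes rose and are textbook targets of stimulus-driven transcription. They come from RefSeq on rat assembly GRCr8 and run from 250 bases before to 50 bases after the start of the gene. The Egr1 window is chr18:26736828-26737127 on the plus strand, and capitals mark its CArG boxes, the sites to which serum response factor binds, which begin 105 and 83 bases before the start. The Junb window is chr19:40080876-40081175 on the plus strand, and capitals mark its TATA box (TATAAA), which begins 49 bases before the start. Searched on both strands in 27457 rat promoters of this length, a CArG box was found in 1.64%, TATAAA in 14.3%, a cAMP response element (TGACGTCA) in 1.91% and an AP-1 site (TGANTCA) in 7.33%. Among 12 genes that rose and have a promoter in the table, 1, 2, 1 and 0 held these motifs. A match is a match of letters only. The table holds no promoter for Arc.
Egr1 promoter: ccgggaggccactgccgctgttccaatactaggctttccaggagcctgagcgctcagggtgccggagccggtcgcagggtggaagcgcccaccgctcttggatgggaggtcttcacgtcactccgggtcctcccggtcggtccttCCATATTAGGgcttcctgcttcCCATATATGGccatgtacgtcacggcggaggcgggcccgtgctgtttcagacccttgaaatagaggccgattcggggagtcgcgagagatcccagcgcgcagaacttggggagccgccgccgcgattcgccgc
Junb promoter: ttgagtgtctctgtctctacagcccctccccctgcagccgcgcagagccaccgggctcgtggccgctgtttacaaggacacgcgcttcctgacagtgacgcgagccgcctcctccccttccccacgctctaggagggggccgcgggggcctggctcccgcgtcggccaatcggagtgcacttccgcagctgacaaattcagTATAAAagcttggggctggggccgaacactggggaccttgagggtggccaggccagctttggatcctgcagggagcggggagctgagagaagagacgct

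The other immediate early genes mostly lay higher in dyskinetic nigra but did not pass. Of 15 tested members of the list 3 rose, none fell and 12 did not pass, while 13 were higher by difference. In 11 of the 15 the dyskinetic arrays lay wholly above the non-dyskinetic ones, against 7.94% of all genes. This count includes Egr1, Arc and Junb. Every gene that passed the test lacked overlap, so these 3 add to the count by the way they were chosen. The median of the whole list, these 3 included, was 0.50, beside -0.02 over all genes. Fos, the partner of Junb in AP-1, stood at 9.20, 8.75 and 9.08 against 8.58, 7.86 and 8.20, a difference of 0.80 ± 0.16 with an adjusted p of 0.0733. Fosb, whose long-lived splice form accumulates in the dyskinetic striatum in rodents, stood at 7.34, 6.99 and 7.27 against 6.80, 6.58 and 6.63 (0.53 ± 0.11, adjusted p = 0.0990). Neither pair of groups overlapped. Npas4, an activity-dependent factor that shapes inhibitory synapses, differed by 0.74 with overlapping arrays (adjusted p = 0.184). Nr4a1 (0.49, adjusted p = 0.126) and Klf4 (0.50, adjusted p = 0.126) had groups that did not overlap. Nr4a2, an immediate early gene that is also an identity factor of dopamine neurons, was 0.23 lower in dyskinetic nigra (adjusted p = 0.66), 1 of the 2 members below 0.

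Genes that respond to the ERK kinases follow, with 1 rise. Etv4, an ETS-family transcription factor downstream of growth factor signalling, stood at 7.64, 7.54 and 7.66 in dyskinetic and 7.17, 7.19 and 7.11 in non-dyskinetic arrays. No vehicle or intact array exceeded 7.13. Etv4 rose by 0.45 ± 0.064 (1.37-fold, adjusted p = 0.0102), with 14 of 16 probe sets in that direction, and did not pass with the median over probe sets (0.42, adjusted p = 0.270) or without dyskinetic array 1 (0.0632), dyskinetic array 3 (0.0544) or non-dyskinetic array 1. Of 15 members tested the other 14 did not pass. In 5 members, Etv4 included, the dyskinetic arrays lay wholly above the non-dyskinetic ones, as in 7.94% of all genes, and the list median was 0.09. Dusp1, a phosphatase that switches off MAP kinases, differed by 0.83 (adjusted p = 0.251), Dusp6 by 0.45 (adjusted p = 0.182) and Etv5 by 0.43 (adjusted p = 0.174).

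Dopamine neuron genes lay lower in dyskinetic nigra, and 1 passed. Ret stood at 9.68, 9.84 and 9.86 in dyskinetic, 10.44, 10.43 and 10.38 in non-dyskinetic, 10.29, 10.21 and 10.22 in vehicle and 11.36, 11.69 and 11.33 in intact arrays. The dyskinetic arrays were below every other nigral array, those of vehicle rats included. Ret fell by 0.62 ± 0.089 on the log2 scale (to 0.650 of the non-dyskinetic level, adjusted p = 0.0102), in all 23 probe sets. It did not pass without dyskinetic array 1, non-dyskinetic array 1 or non-dyskinetic array 2 (highest adjusted p 0.0706). Gfra1, the co-receptor that binds GDNF for Ret, stood at 9.95, 9.81 and 10.14 against 10.26, 10.28 and 10.34 without overlap, and did not pass (-0.33 ± 0.088, adjusted p = 0.140). Of 13 neurotrophic factor and receptor genes, Ret included, 1 fell and 12 did not pass. By difference 6 were higher and 7 lower, with a median of -0.09. Dyskinetic arrays lay wholly below non-dyskinetic ones in 6 (13.3% of all genes) and wholly above in 1 (7.94% of all genes).

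The remaining dopamine genes were spread within the dyskinetic group. Th stood at 10.86, 11.29 and 12.22 in dyskinetic arrays, and non-dyskinetic arrays had a mean of 12.27 and a highest value of 12.45. Slc6a3 stood at 10.03, 10.27 and 11.62 against 12.17, 11.87 and 11.59. For both genes dyskinetic array 3 lay with the non-dyskinetic arrays, and arrays 1 and 2 lay near the vehicle means of 10.80 and 10.25. Th differed by -0.82 ± 0.30 (adjusted p = 0.245) and Slc6a3 by -1.24 ± 0.36 (adjusted p = 0.166). The vesicular transporter Slc18a2 stood at 7.99, 8.37 and 9.59 against 9.77, 9.67 and 9.11 (-0.87, adjusted p = 0.232), and Ddc, which converts levodopa to dopamine, at 8.92, 8.86 and 9.91 against 9.75, 9.96 and 9.52 (-0.51, adjusted p = 0.309). Without dyskinetic array 3, the one with serotonin neuron genes, Slc6a3 (-1.73, adjusted p = 0.0418), Slc18a2 (-1.34, adjusted p = 0.0365) and Ddc (-0.85, adjusted p = 0.0377) passed, and Th did not (-1.20, adjusted p = 0.119). With vehicle arrays 1 and 3 left out as well, a setting chosen after seeing the data, all 4 passed, with adjusted p of 0.00773 for Th, 0.000951 for Slc6a3, 0.0117 for Slc18a2 and 0.0160 for Ddc. Array 3 held the highest dyskinetic value of all 4 genes, so leaving it out widens the differences. Without dyskinetic array 1 instead, none of the 4 passed. The adjusted p from limma was then 0.413 for Slc6a3, 0.545 for Slc18a2, 0.567 for Th and 0.630 for Ddc. Over 24 alternative settings Slc6a3, Slc18a2 and Ddc passed in 2 each and Th in 1. Non-dyskinetic means were above vehicle means by 1.47 for Th, 1.62 for Slc6a3, 1.34 for Slc18a2 and 1.17 for Ddc. Dyskinetic means were above vehicle means by 0.65, 0.38, 0.47 and 0.66 in the same order. These gaps to vehicle rats were not tested. In a bulk punch, fewer dopamine neurons and less of each messenger per neuron cannot be told apart.

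Across the whole list of nigral dopamine neuron markers, 1 of 22 tested genes fell, none rose and 21 did not pass. By difference 19 were lower, and the median was -0.34 (range -1.31 to 0.10) against -0.02 over all genes. Dyskinetic arrays lay wholly below non-dyskinetic ones in 3 of the 22, Ret, Drd2 and Chrna6, a share near the 13.3% of all genes. Drd2, the dopamine autoreceptor, was lower by 0.54 (adjusted p = 0.189). Mean levels over the list were 8.32, 8.53 and 8.94 in the dyskinetic arrays and 9.12, 9.09 and 8.88 in the non-dyskinetic arrays. These groups thus overlapped through dyskinetic array 3. Vehicle arrays stood at 8.51, 8.34 and 8.18, and intact arrays at 10.11, 10.42 and 10.14. Every non-dyskinetic array was above every vehicle array, while dyskinetic arrays 1 and 2 lay within or near the vehicle range. Whether a difference in the remaining dopamine neurons has a part in the other results was not tested. The nicotinic receptor subunits of these neurons had the largest differences without a call. Chrnb3 stood at 7.88, 7.91 and 9.20 against 9.99, 9.90 and 9.44 (-1.45 ± 0.31, adjusted p = 0.0979), and Chrna6 at 8.24, 8.40 and 9.30 against 10.12, 10.07 and 9.67 (-1.31 ± 0.30, adjusted p = 0.109). Of 13 acetylcholine receptor genes 10 were lower and none passed.

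**Figure D3:**
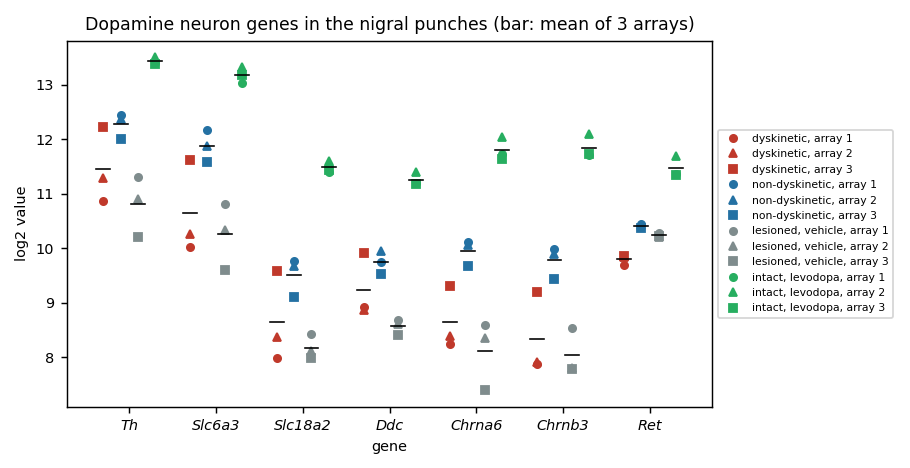
Log2 level (y axis) of dopamine neuron genes in the 12 nigral arrays, one point an array, coloured by group, with shape for the array number and bars for group means. For Th and Slc6a3 dyskinetic array 3 stands with the non-dyskinetic arrays while arrays 1 and 2 stand with vehicle arrays; for Ret all 3 dyskinetic arrays (9.68 to 9.86) lie below all 9 others.

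Of 11 thyroid, retinoid and steroid hormone genes 2 rose, Dio2 and Hsd11b1, and 7 were lower by difference. Dio2, the deiodinase that turns thyroxine into active T3 and which astrocytes and tanycytes make, stood at 7.73, 7.67 and 7.90 in dyskinetic and 6.90, 6.89 and 7.16 in non-dyskinetic arrays. It rose by 0.78 ± 0.11 (1.72-fold, adjusted p = 0.0102). Hsd11b1, which regenerates active glucocorticoid, was nearly constant in dyskinetic nigra at 9.08, 9.05 and 9.08, against 8.41, 8.56 and 8.44. It rose by 0.60 ± 0.078 (1.52-fold, adjusted p = 0.0102) in 10 of 11 probe sets. No vehicle or intact array came within the dyskinetic range of either gene. Dio2 lost its call without dyskinetic array 1 or 3 or non-dyskinetic array 1 or 2 (highest adjusted p 0.0706). The other 9 genes of the list did not pass, and the list median was -0.03.

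Of 16 tubulin and cytoskeleton genes 2 rose, Tubb2b and Tubb6. Tubb2b, a beta-tubulin of growing neurons, stood at 11.59, 11.67 and 11.74 in dyskinetic and 10.78, 11.04 and 10.93 in non-dyskinetic arrays. It rose by 0.75 ± 0.11 (1.68-fold, adjusted p = 0.0102). Tubb6, a minor beta-tubulin found in many cell types, stood at 8.47, 8.48 and 8.55 against 7.81, 7.51 and 7.71 and rose by 0.82 ± 0.12 (1.77-fold, adjusted p = 0.0102). All probe sets of both genes (4 each) were higher in dyskinetic rats. Both lost their call without dyskinetic array 1 or 3 and without 1 non-dyskinetic array, array 1 for Tubb2b and array 2 for Tubb6 (highest adjusted p 0.0537 and 0.0706). Tubulin and cytoskeleton genes as a group had a median of -0.01, with 9 lower and 7 higher by difference. Stmn1, which destabilises microtubules, was 0.17 lower without overlap (adjusted p = 0.373).

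Adgrl4, Bcl6b and Tmem88, which are in none of the gene lists, rose. Adgrl4, an adhesion receptor of endothelial cells with a role in vessel growth, stood at 8.77, 8.66 and 8.94 against 8.14, 8.26 and 8.25, and rose by 0.58 ± 0.082 (1.49-fold, adjusted p = 0.0102) in 14 of 16 probe sets. Bcl6b, a transcriptional repressor present in endothelium, stood at 7.94, 7.79 and 8.01 against 7.12, 7.07 and 7.46 and rose by 0.70 ± 0.098 (1.62-fold, adjusted p = 0.0102) in 8 of 8 probe sets. Tmem88, a membrane protein that restrains Wnt signalling, stood at 8.11, 7.92 and 8.06 against 7.37, 7.27 and 7.44 and rose by 0.67 ± 0.11 (1.59-fold, adjusted p = 0.0307). No array of the other groups reached the dyskinetic ones in any of these genes. Their calls were lost without dyskinetic arrays 1 or 3 and other single arrays, with highest adjusted p of 0.0603, 0.0706 and 0.148. None of 10 markers of endothelium and vessel wall passed; their median was -0.02, and their mean level was 9.00, 9.10 and 9.15 in dyskinetic and 8.90, 9.15 and 9.17 in non-dyskinetic arrays. Cldn5, the main tight-junction protein of brain endothelium, differed by -0.03 (adjusted p = 0.917), and Esam, an endothelial adhesion molecule, by 0.23 without overlap (adjusted p = 0.189). Among 12 angiogenesis genes none passed. Apln, a peptide made by sprouting vessels, was the nearest, at 9.71, 9.55 and 9.73 against 8.81, 9.24 and 9.07 (0.62, adjusted p = 0.111).

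Among the other rises, Slc38a3 had the smallest adjusted p of all genes. This transporter moves glutamine out of astrocytes. It stood at 11.19, 11.21 and 11.18 in dyskinetic, 10.70, 10.65 and 10.69 in non-dyskinetic, 10.54, 10.61 and 10.52 in vehicle and 10.51, 10.53 and 10.58 in intact arrays. The dyskinetic arrays stood clear of the other 9, while vehicle and intact arrays overlapped, and Slc38a3 rose by 0.51 ± 0.055 (1.43-fold, adjusted p = 0.00553) in 16 of 16 probe sets. The 10 astrocyte markers tested had a median of 0.07 and none passed; Gfap, the filament of reactive astrocytes, was 0.32 lower without overlap (adjusted p = 0.220). Kcne5, an accessory subunit of potassium channels, stood at 10.81, 10.70 and 10.62 against 9.77, 9.78 and 9.54 in non-dyskinetic and 9.06, 8.95 and 9.04 in vehicle arrays. Non-dyskinetic rats were thus between the other lesioned groups. Kcne5 rose by 1.01 ± 0.13 (2.02-fold, adjusted p = 0.0102), on 1 probe set.

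PVR, an adhesion receptor of the nectin family, stood at 8.62, 8.68 and 8.70 against 7.72, 7.88 and 7.90 and rose by 0.83 ± 0.10 (1.78-fold, adjusted p = 0.0102) in 9 of 9 probe sets. Grifin, a galectin-related protein known from the lens, stood at 8.33, 8.68 and 8.27 against 7.49, 7.58 and 7.50 and rose by 0.90 ± 0.16 (1.87-fold, adjusted p = 0.0366). Vehicle arrays of Grifin were uneven, at 7.07, 7.69 and 7.01, yet all lay below the dyskinetic ones. Terc, the RNA template of telomerase, stood at 9.00, 9.24 and 9.10 against 8.57, 8.58 and 8.64 and rose by 0.51 ± 0.076 on 1 probe set (adjusted p = 0.0118). Tceal8, of a family of transcription elongation factor-like proteins, rose by 0.52 ± 0.091 (adjusted p = 0.0366). Its 4 probe sets were uneven, with differences from 0.0089 to 1.74 and a median of 0.17, and 2 of them had no overlap. The calls of Grifin, Terc and Tceal8 were lost without 9, 5 and 8 of the 12 single arrays, with highest adjusted p of 0.129, 0.0706 and 0.167. The last 4 rises are Cflar, an inhibitor of caspase-8 (0.38 ± 0.063), Trak2, an adaptor that links mitochondria to motor proteins (0.43 ± 0.078), Tp53inp2, a protein of autophagy (0.44 ± 0.079), and the histone gene Hist1h2bl (0.51 ± 0.090). They, with Slc38a3, fell outside the naming rule and were named after their values were seen, as were some list members that did not pass. The adjusted p of these last 4 rises ran from 0.0273 to 0.0427. Their calls were lost without 7 to 10 of the 12 single arrays (highest adjusted p 0.211, Trak2 without dyskinetic array 1).

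The falls besides Ret follow, and those of Ngdn and Dnah12 were larger than that of Ret (-0.62). Ngdn, a nucleolar protein that also binds a translation initiation factor, stood at 7.72, 7.99 and 7.79 against 8.39, 8.63 and 8.57. It fell by 0.70 ± 0.12 on the log2 scale (38.4% lower, adjusted p = 0.0366) in 9 of 9 probe sets. Vehicle array 1 of Ngdn, at 7.81, lay among the dyskinetic arrays. Acsm5, a mitochondrial enzyme that activates medium-chain fatty acids, stood at 6.52, 6.28 and 6.37 against 7.01, 6.88 and 7.13. Acacb, the acetyl-CoA carboxylase that restrains fatty acid oxidation, stood at 6.70, 6.78 and 6.89 against 7.16, 7.20 and 7.31. Acsm5 fell by 0.62 ± 0.088 (adjusted p = 0.0102), in 18 of 21 probe sets. Acacb fell by 0.43 ± 0.071 (adjusted p = 0.0259), in 47 of 54 probe sets, of which 17 had no overlap. In both genes the vehicle mean was above the non-dyskinetic one. Dnah12, an axonemal dynein of motile cilia, stood at 6.41, 6.20 and 6.17 against 6.80, 6.83 and 7.13. It fell by 0.66 ± 0.12 (adjusted p = 0.0366), in 68 of 76 probe sets, of which 32 had no overlap. Beside it, the 5 choroid plexus and ependyma markers tested had a median of -0.00361 and none passed. The part of ciliated cells in the fall of Dnah12 was not tested. The dyskinetic means of Acsm5 (6.39) and Dnah12 (6.26) were at levels like that of Ciita (6.46, 6.47 and 6.49), which the filter on low values left out. Their vehicle means were 7.48 and 7.34, and the filter used the mean over all nigral arrays. Values this low limit how far the falls of Acsm5 and Dnah12 can be read.

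Nxpe1, at 7.02, 6.98 and 6.96 against 7.40, 7.59 and 7.37, fell by 0.47 ± 0.065 (adjusted p = 0.0102). Wnk2, a kinase of the family that controls chloride transporters, fell by 0.46 ± 0.073 (adjusted p = 0.0203) in 31 of 33 probe sets. Ampd3, an AMP deaminase, fell by 0.36 ± 0.064 (adjusted p = 0.0366) in 14 of 14, and D430041D05Rikl by 0.38 ± 0.061 (adjusted p = 0.0226) in 14 of 14. The lipid transporter Abca7 was next in order (-0.43, adjusted p = 0.0565) and did not pass. Leaving out single arrays cost Nxpe1 its call in 2 of 12 cases, Acsm5 in 4, Wnk2 in 5, Acacb and D430041D05Rikl in 6 each, Ngdn in 9, and Ampd3 and Dnah12 in 10 each, with a highest adjusted p of 0.167.

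Neurotransmitter and peptide genes gave no call. Among 14 neuropeptides and secreted factors 12 were higher by difference and the median was 0.33. The groups did not overlap in 4 of the higher ones (7.94% of all genes) and in 1 of the lower ones, Cck (13.3% of all genes). Sst, the somatostatin precursor, had the list's highest difference, at 9.89, 10.80 and 10.19 against 8.44, 10.30 and 8.30 (1.28 ± 0.50, adjusted p = 0.270); its groups overlapped. Scg2, a granin of secretory vesicles, stood at 11.46, 11.68 and 11.52 against 11.28, 11.30 and 11.07 (0.34 ± 0.076, adjusted p = 0.109). Tac3 differed by 0.43 (adjusted p = 0.109) and Cck by -0.47 (adjusted p = 0.205). The opioid-related precursor Pnoc, which yields nociceptin, came closest, at 9.93, 9.26 and 9.83 against 8.86, 8.79 and 8.53 (0.95 ± 0.19, adjusted p = 0.0759). Penk stood at 8.66, 8.92 and 8.93 against 8.26, 8.32 and 8.03, without overlap but below vehicle array 1 (0.63, adjusted p = 0.435). Pdyn, the dynorphin precursor, differed by -0.03 (adjusted p = 0.93) and Trh by 0.03 (adjusted p = 0.91).

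All 17 ion channel genes of nigral firing were lower in dyskinetic nigra by difference, beside 55.5% of all genes, and none passed. Dyskinetic arrays lay wholly below non-dyskinetic ones in 5 of them, beside 13.3% of all genes, and the median was -0.17. Cacna1d, the calcium channel that paces dopamine neurons, stood at 8.20, 8.31 and 8.17 against 8.58, 8.51 and 8.54 (-0.31, adjusted p = 0.132). Markers of the GABA neurons of the nigra had a median of -0.08 over 12 genes, none passing. Gad1, which makes GABA, differed by -0.07 (adjusted p = 0.77) and Pvalb by -0.09 (adjusted p = 0.76). Receptor genes for GABA (13 genes, median -0.08), glutamate (21 genes, median -0.06) and serotonin (12 genes, median -0.01) gave no call either. Dyskinetic arrays lay wholly below non-dyskinetic ones in 4, 5 and 1 of these genes, beside 13.3% of all genes. They lay wholly above in 2, 0 and 2, beside 7.94% of all genes. Differences of GABA receptor genes ran from -0.48 to 0.80. Htr5b (0.39, adjusted p = 0.0729) and Htr3a (-0.30, adjusted p = 0.0812) were nearest among serotonin receptors, while Htr2a differed by -0.22 (adjusted p = 0.58) and the dopamine receptor Drd1 by -0.10 (adjusted p = 0.91).

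Markers of glia and of neighbouring cells were tested for movement with the groups. None of 14 microglia and macrophage, 13 oligodendrocyte, 9 glutamate neuron, 13 striatal projection neuron, 4 serotonin neuron or 3 blood genes passed. Medians were 0.06, 0.05, 0.12, -0.03, 0.13 and 0.16. In the striatal list the groups did not overlap in 2 higher members, Penk and Tac1, and in 1 lower member. The shares over all genes were 7.94% and 13.3%. Tac1 stood at 7.36, 7.98 and 7.45 against 7.10, 7.16 and 6.94 (0.53 ± 0.22, adjusted p = 0.304 from limma), below vehicle array 1 (8.11). Oligodendrocyte markers had 11 of 13 members higher by difference, at most by 0.10, and the myelin gene Mbp differed by 0.08 (adjusted p = 0.62). Oxidative phosphorylation genes had a median of 0.06 with 14 of 17 higher. Among 14 antigen presentation and complement genes the median was 0.13, and complement C3 stood at 11.48, 11.55 and 11.91 against 10.79, 10.76 and 11.35 (0.68, adjusted p = 0.111). Interferon genes (median -0.14), cell stress genes (median -0.00187), synapse genes (median -0.04), dopamine and cAMP signalling genes (median -0.00848) and cannabinoid and opioid genes (median 0.00836) gave no call. In all, 9 of the 369 listed genes tested passed.

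**Figure D4:**
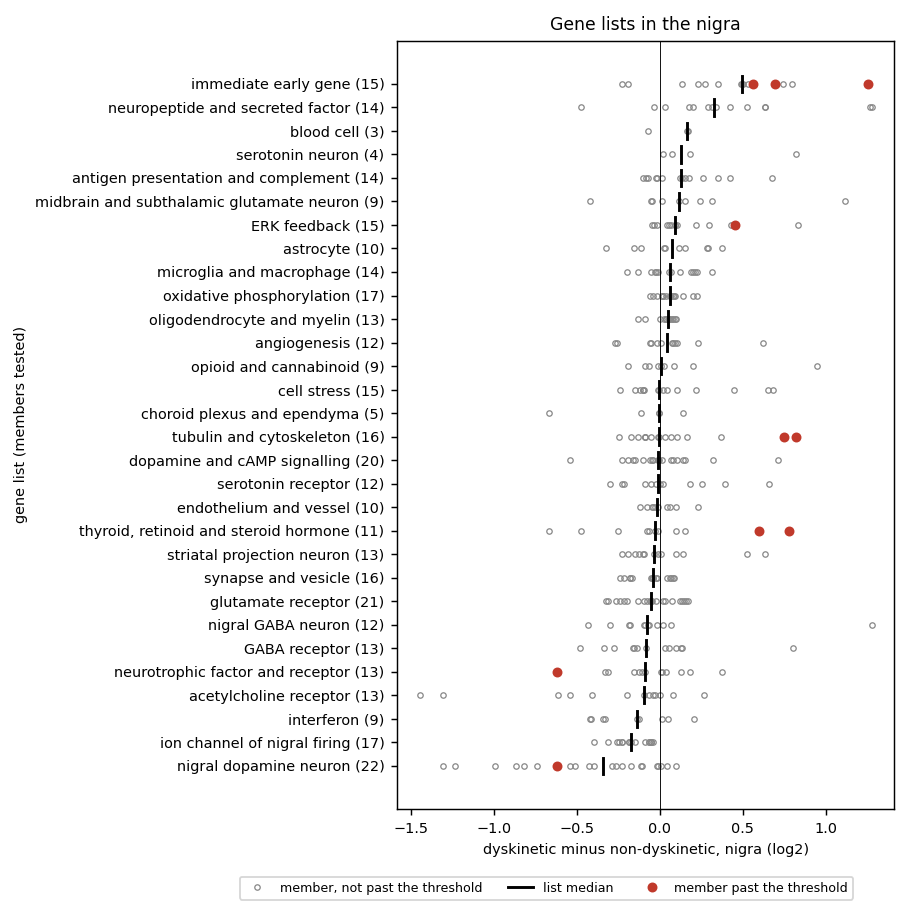
Difference between dyskinetic and non-dyskinetic nigra (log2, x axis) of every tested member of each gene list, with list medians as bars and the number tested in brackets; filled red points passed the test. Immediate early genes have the highest median (0.50) and dopamine neuron genes the lowest (-0.34).

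The same contrast was set beside striatum punches, taken from all 3 non-dyskinetic rats and 2 of the 3 dyskinetic rats, so that the tissues share animals but no arrays. There 654 of 12436 genes passed (5.26%). Of the 30 nigral genes 14 passed in striatum too, which is 46.7% of the nigral and 2.14% of the striatal genes. All 14 went the same way, 12 up and 2 down. PVR rose by 1.37 in striatum and by 0.83 in nigra, Arc by 1.23 and 0.70, Junb by 0.99 and 0.56, Bcl6b by 0.79 and 0.70, and Cflar by 0.65 and 0.38. Dio2, Hsd11b1, Tubb2b, Tubb6, Kcne5, Adgrl4 and Tmem88 passed in both tissues, and Nxpe1 and D430041D05Rikl fell in both. Ret did not pass in striatum (0.04, adjusted p = 0.93), where its level in the compared arrays was at most 7.47.

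A difference between the tissues was then tested directly over all 24 arrays. It passed for 190 of 12436 genes (1.53%), 27 with the higher difference in nigra and 163 with the lower. The count was 112 without nigral dyskinetic array 2, 95 without striatal dyskinetic array 2 and 316 without striatal dyskinetic array 3. Of 28 nigral genes in that test, 2 passed. Grifin was 0.79 ± 0.18 more raised in nigra (adjusted p = 0.0271), with 6.66, 6.80 and 6.68 in dyskinetic and 6.58, 6.46 and 6.75 in non-dyskinetic striatum. Trak2 was 0.39 ± 0.092 more raised in nigra (adjusted p = 0.0288), with 10.97, 10.98 and 10.88 against 10.92, 10.87 and 10.93 in striatum. In both genes the striatal groups overlapped. The largest differences in the other direction were those of Nr4a2 (-3.62), Trh (-3.03), Nmu (-2.25), Timp1 (-2.14) and Cdkn1a (-2.11). A negative value here need not be a fall in nigra. Between dyskinetic and non-dyskinetic nigra Nr4a2 differed by -0.23, Trh by 0.03, Timp1 by 0.62 and Cdkn1a by 0.66. Cdkn1a differed by 2.78 in striatum. Beside Grifin, the largest with the higher difference in nigra were Gpr139 (1.34), Syt2 (0.95), Sytl5 (0.68) and Nexn (0.63). These are not rises in nigra. There Gpr139 differed by -0.06, Syt2 by -0.30 and Sytl5 by -0.05 between dyskinetic and non-dyskinetic rats. Syt2 differed by -1.25 in striatum. Among the genes named here beside Grifin, Nmu and Nexn lay below the filter in nigra, and the others did not pass there.

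A further 30107 probe sets that name no single gene were tested apart, and 2 passed in nigra (0.00664%).

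**Figure D5:**
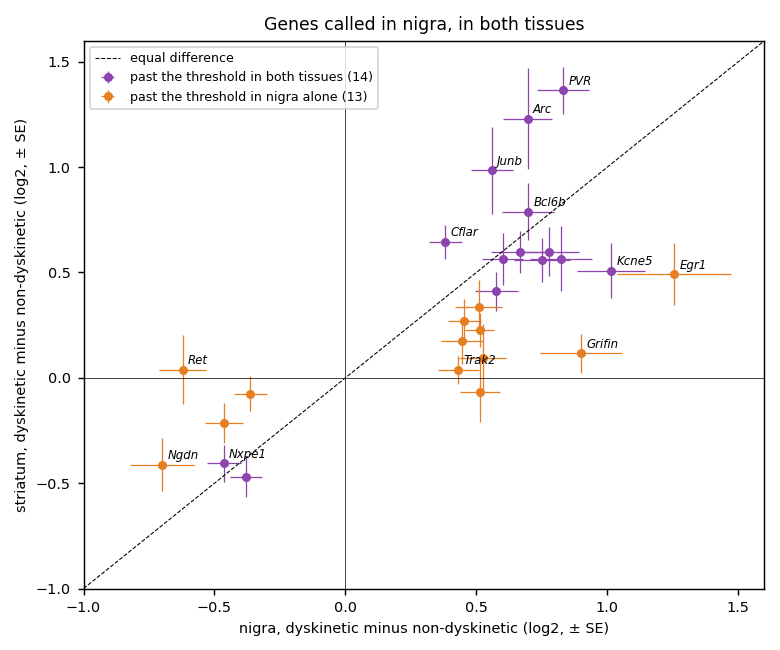
Difference between dyskinetic and non-dyskinetic rats (log2, ± SE) in nigra (x axis) and striatum (y axis) for the 27 nigral genes tested in both tissues; the dashed line marks equal differences. Genes past the threshold in both (14) lie in the quadrants of equal sign, and Grifin and Trak2 lie near 0 on the striatal axis.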

How the data were processed

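Labelled RNA of each punch (RIN at least 7 per the labels) was hybridised to an Affymetrix exon-level array. The deposited values are log2 levels per probe set, which the authors made with RMA in oligo 1.34 under R 3.2.3, per the submitters' processing notes. Of 213067 probe sets 172924 name 1 gene, and symbols were updated with the RefSeq gene table of GRCr8. Means over these gave 16582 genes. The lowest 25% by nigral mean were left out. The remaining 12436 entered limma 3.58.1 (lmFit and eBayes, R 4.3.3) over 12 nigral arrays, with 1 mean for each of 4 groups and Benjamini-Hochberg adjustment at 0.05. The tissue difference was fitted over 24 arrays, and arrays of the same rat were treated as correlated (0.152). The method was tested on simulated data.

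Genes named are up to 15 rises and 15 falls with the largest differences past the threshold and no overlap, filled up to 10 by the most extreme statistics, list members past it or nearest to it, and a fixed set of lesion and cell markers. Some list members that did not pass were named outside this rule, after their values were seen. They are Fos, Npas4, Nr4a1, Klf4, Dusp1, Dusp6, Etv5, Gfra1, Chrna6, Cldn5, Stmn1, Sst, Tac3, Cck and Htr3a. The members and the 31 gene lists were chosen with earlier results of these data known. Of 432 listed genes 32 lacked an own probe set and 31 were below the filter, among them all cholinergic and noradrenergic neuron markers, so that list gave no result. Replicates are called biological in the labels.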

Additional observations from a re-analysis of the deposited data

Results flagged for a closer look

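The difference between nigra and striatum passed for 190 genes. Of the genes that passed in nigra, it singled out Grifin, whose rise was larger in nigra by 0.79 ± 0.18, and Trak2, whose rise was larger there by 0.39 ± 0.092; neither passed in striatum.

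Among 30107 probe sets that name no single gene, and which enter no gene value above, 2 passed in nigra, with 3004 at an unadjusted p under 0.05. They are unnamed here. Probe set 10815585 differed by -0.99 ± 0.10 (adjusted p = 0.0376) and probe set 10916962 by 1.28 ± 0.14 (adjusted p = 0.0414).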

How the results depend on the processing

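The count of 30 genes was 17 with the lowest 50% left out, 16 with the median over probe sets (14 of them among the 30), 104 with array weights (50 higher, 54 lower), and 0 to 50 when 1 array was left out. After seeing the data, 56 was found without vehicle arrays 1 and 3. It stayed within 1.5 times of 30 with no filter (29), trended (32) or robust (29) variances, renewed quantile normalization (27) and centring on array medians (28). With only the 6 compared arrays it was 43, also within 1.5 times, but only 23 of these were among the 30. The replicate number as a block gave 30 genes, 23 of them shared. Same-numbered dyskinetic and non-dyskinetic arrays correlated at -0.0713, 0.214 and 0.204 and come from different rats, so the numbers do not pair them. The 190 genes of the tissue difference became 124 with the median over probe sets, 101 with only the dyskinetic rats that gave both tissues, and 95 to 316 without 1 of the 12 compared arrays. The 2 unnamed probe sets became 1 with no filter, 0 with only the 6 compared arrays (2954 at an unadjusted p under 0.05), 0 with the replicate block (2880) and 0 without each of the 6 compared arrays in turn (2209 to 3909). Why the counts moved was not tested. No direction reversed among the 30 genes.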
